A study of Caenorhabditis elegans with 2 samples.

Results

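Of 1023 genomic regions where LIN-29::EGFP chromatin immunoprecipitation (ChIP-seq) gave a thresholded peak, 212 (20.7%, 95% Wilson interval 18.4 to 23.3%) had their summit within 500 bp of an annotated gene for a transfer RNA (tRNA), small nuclear RNA (snRNA) or small nucleolar RNA (snoRNA). The regions were made by merging the overlapping peaks of all 4 deposited thresholded lists, 2668 in all. Each region took the summit of its strongest peak and the class of the nearest small RNA gene. The nearest gene was a tRNA gene for 143 regions, a snRNA gene for 13 and a snoRNA gene for 56. All other 811 regions serve as the comparison. Of the 212, 180 lay near 1 small RNA gene, 26 near 2 and 6 near 3, and 1 lay near genes of different classes.

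The study holds 1 group of 2 samples. Both are whole C. elegans of strain RW12227, which carries the allele st12227[lin-29::TY1::EGFP::3xFLAG] on chromosome II, an insertion made by CRISPR at the lin-29 gene itself. The animals were L4 larvae of 49 hours, synchronised by starving newly hatched L1 larvae after bleaching. The labels number the samples as biological replicates 1 and 2 with separate biosample entries. They describe an anti-GFP antibody, although the antibody field gives lin-29. LIN-29 is a zinc finger transcription factor at the end of the heterochronic pathway, which times the change of the epidermis to its adult state. Read depth is unknown, because the deposited peak lists give no counts. The labels name a possible control experiment, which was not analysed here, so signal from the tagged protein and signal that any immunoprecipitation would give at these genes cannot be told apart. Since whole animals were used, the cells that gave the signal cannot be told apart either.

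tRNA genes are read by RNA polymerase III, which is recruited by a pair of short elements inside the gene, the A box and the B box. snRNAs are the RNA parts of the spliceosome, and their genes carry their promoter elements upstream. In nematodes the snRNA class also holds the spliced leader RNAs, whose 5′ ends are joined to other messenger RNAs. The SL2 leaders, made by the sls-2 genes, go to downstream genes of operons, while the SL1 leaders come from the sls-1 genes. snoRNAs guide chemical modification of ribosomal and other RNAs. Many snoRNA genes lie in introns of other genes, and in worms some have a promoter of their own.

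Some of the sequences under strong regions hold a match to the patterns searched for such elements, and others do not. For 6 tRNA genes, taken as the strongest regions of their isotype with the summit within 100 bp of the gene, 30 bp before the gene and the whole gene are given, 5′ to 3′ on the strand of the gene. The sequences come from the RefSeq genome of WBcel235. F15G9.t1 (Ala) is at chrX:9743559-9743660 on the plus strand and R11.t1 (Tyr) at chrX:16209769-16209882 on the minus strand. R04D3.t2 (Val) is at chrX:13307004-13307106 on the plus strand and W09D6.t2 (Pro) at chrIII:11066848-11066949 on the minus strand. C40H5.t1 (Leu) is at chrX:11757831-11757944 and H08J11.t3 (Gln) at chrX:9091557-9091658, both on the minus strand. Capitals mark the B box, GTTCNANNC, which all 6 genes hold near their 3′ end. They also mark the A box in the loose form TNGCNNAG, which matched in 3 of them. A gene without a match may still hold an A box in another form.
F15G9.t1: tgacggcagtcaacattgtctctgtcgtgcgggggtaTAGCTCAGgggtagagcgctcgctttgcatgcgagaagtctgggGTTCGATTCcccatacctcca
R11.t1: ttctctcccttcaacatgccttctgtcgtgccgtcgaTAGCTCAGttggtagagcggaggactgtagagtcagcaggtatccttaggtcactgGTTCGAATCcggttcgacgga
R04D3.t2: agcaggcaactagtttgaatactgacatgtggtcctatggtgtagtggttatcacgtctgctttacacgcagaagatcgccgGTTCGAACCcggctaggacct
W09D6.t2: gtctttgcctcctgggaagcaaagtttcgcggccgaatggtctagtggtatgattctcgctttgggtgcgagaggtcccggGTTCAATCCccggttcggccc
C40H5.t1: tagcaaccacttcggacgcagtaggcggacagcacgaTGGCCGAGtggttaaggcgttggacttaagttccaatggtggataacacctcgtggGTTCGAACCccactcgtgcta
H08J11.t3: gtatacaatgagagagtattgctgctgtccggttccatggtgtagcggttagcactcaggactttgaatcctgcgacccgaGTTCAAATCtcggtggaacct

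For 4 of the strongest snRNA regions, 100 bp before the gene and its first 20 bp are given. sls-2.1 is at chrII:5844765-5844884 and sls-2.2 at chrII:5543498-5543617, both on the plus strand, and both end here in the same 20 bases, the start of the leader RNA. W05B2.8 is at chrIII:10989579-10989698 on the plus strand and sup-6 at chrII:12944948-12945067 on the minus strand. Capitals mark AACCC followed 4 to 8 bases on by TGTC, and TATATAA. W05B2.8 holds both elements, sup-6 the first, and neither sls-2 gene holds one.
sls-2.1: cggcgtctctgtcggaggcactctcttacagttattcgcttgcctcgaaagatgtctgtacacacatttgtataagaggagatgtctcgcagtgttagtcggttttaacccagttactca
sls-2.2: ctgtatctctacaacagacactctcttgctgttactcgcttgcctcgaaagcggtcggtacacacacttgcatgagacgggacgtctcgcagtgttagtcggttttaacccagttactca
W05B2.8: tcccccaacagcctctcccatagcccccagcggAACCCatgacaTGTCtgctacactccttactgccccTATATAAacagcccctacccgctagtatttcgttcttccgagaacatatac
sup-6: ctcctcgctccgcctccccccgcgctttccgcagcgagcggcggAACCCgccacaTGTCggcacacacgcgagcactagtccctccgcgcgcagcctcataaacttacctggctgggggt

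Upstream of 4 strong snoRNA genes the same window showed 3 different arrangements. ZK994.7 is at chrV:8500479-8500598, C51F7.4 at chrV:12303499-12303618, T03F7.8 at chrV:11314158-11314277 and F55A11.10 at chrV:11782892-11783011, all on the plus strand. Capitals mark AACCC and TGTC in ZK994.7, and a loose A box followed by a B box in T03F7.8 and F55A11.10, where the 2 boxes lie before the gene. C51F7.4 holds none of these. A match to such letters is a description and not a tested binding site.
ZK994.7: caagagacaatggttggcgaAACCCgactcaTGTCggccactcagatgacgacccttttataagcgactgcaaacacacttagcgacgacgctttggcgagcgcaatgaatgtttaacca
C51F7.4: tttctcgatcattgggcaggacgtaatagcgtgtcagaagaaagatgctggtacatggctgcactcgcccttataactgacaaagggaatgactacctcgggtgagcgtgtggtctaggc
T03F7.8: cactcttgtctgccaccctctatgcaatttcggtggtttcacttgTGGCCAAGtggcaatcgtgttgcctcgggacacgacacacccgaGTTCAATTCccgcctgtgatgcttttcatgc
F55A11.10: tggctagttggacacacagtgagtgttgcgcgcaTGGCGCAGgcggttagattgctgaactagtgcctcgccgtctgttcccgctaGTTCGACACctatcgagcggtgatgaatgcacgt

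Signal at the 212 regions was of middle rank among all regions, and highest near snoRNA genes. The signal is a value of the authors' peak caller, in units of its own, and was read for every region as the strongest overlapping candidate of the pooled candidate list. Its median was 79.8 (quartiles 65.5 and 103) at the 212 regions and 71.9 (60.9 and 100.4) at the other regions with a candidate. By class the median was 76.7 near tRNA genes (range 49.4 to 219.8), 77.4 near snRNA genes (56.4 to 202) and 88.2 near snoRNA genes (48.6 to 298). The other regions spanned 6.74 to 625, so the strongest of the regions were not near small RNA genes. The strongest pooled candidate of all had a signal of 1602.6, above that of any region, and so lay in none of them. The same held in each replicate's own list, with 876 against at most 371 in a region, and 848 against at most 265. Why such candidates are in no thresholded list was not tested. Of the 100 strongest regions, 11 were near small RNA genes (4 tRNA, 2 snRNA and 5 snoRNA) and 89 were not. Of the 500 strongest, 127 were near them (79, 8 and 40 by class) and 373 were not.

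**Figure D1:**
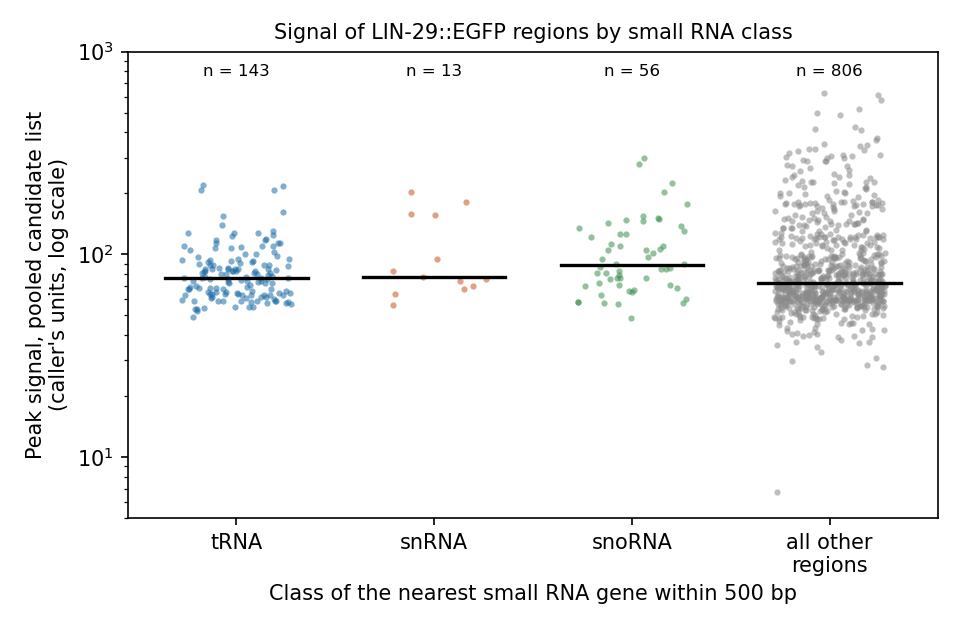
Signal of each region (vertical axis, log scale, peak caller's units, pooled candidate list) by the class of the nearest small RNA gene within 500 bp, with the other regions at the right. Each point is 1 region and bars are medians, which lie at 76.7 (tRNA), 77.4 (snRNA), 88.2 (snoRNA) and 71.9 (other), while all points above 298 belong to the other regions.

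The order of the 3 classes was the same in each replicate, where all merged regions with a candidate in that replicate's own list were ranked by its signal. The median rank percentile of snoRNA regions was 62.3 in replicate 1 and 66.5 in replicate 2, that of snRNA regions 54.3 and 61.2, and that of tRNA regions 47.1 and 51.2. The other regions had 49.9 and 47.4, so tRNA regions stood below them in replicate 1 and above them in replicate 2. Signal levels of the replicates were not compared, since the scaling of each list is not stated.

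Candidates near small RNA genes were kept at the threshold much more often than candidates elsewhere. A candidate is any entry of a ranked list, and 1.56% of the 54915 merged candidates of the pooled list overlapped its thresholded list. The share was 194 of 972 candidates (19.96%, 17.6 to 22.6%) near small RNA genes and 662 of 53943 (1.23%) elsewhere. By class it was 23.9% near tRNA genes (128 of 535), 14.1% near snRNA genes (14 of 99) and 15.3% near snoRNA genes (53 of 347). In replicate 1, where 1.27% of all candidates were kept, the share was 108 of 854 (12.6%) near small RNA genes and 1.03% elsewhere. In replicate 2, with 0.883% of all candidates kept, it was 89 of 861 (10.3%) and 0.690%. All 3 lists thus showed the same direction in each class.

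Over all candidates, whether kept at the threshold or not, those near tRNA genes had the highest median signal of the 3 classes. The median over pooled candidates was 39.4 near tRNA genes, 28.0 near snRNA genes and 28.3 near snoRNA genes, against 22.4 over all candidates. Near tRNA genes 44.7% of the pooled candidates were among the strongest 5% of all, and 38.3% in replicate 1 and 32.2% in replicate 2. A pooled candidate lay within 500 bp of 86.8% of tRNA genes, 60.5% of snRNA genes and 81.2% of snoRNA genes.

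Seen from the genes, 244 of the 1087 annotated nuclear small RNA genes had a region within 500 bp. The share was 28.3% for tRNA genes (173 of 612, interval 24.8 to 32.0%), 10.9% for snRNA genes (14 of 129, 6.58 to 17.4%) and 16.5% for snoRNA genes (57 of 346, 12.9 to 20.7%). These counts depend on the lists used: by a single replicate's own thresholded list they were 67 to 77 for tRNA, 8 to 9 for snRNA and 34 to 37 for snoRNA genes, and the regions near small RNA genes were then 89 to 108. For scale, 4.65% of protein-coding genes (929 of 19973) had a region within the same distance of the gene body. Neighbouring genes can share a region, and 28 regions lay near 2 or more tRNA genes. The intervals cover counting error over genes only, and genes and sites are not replicates.

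The strongest tRNA region lay on F15G9.t1, an alanine tRNA gene in an intron of him-4, which encodes the basement membrane protein hemicentin. Its signal was 219.8 in the pooled list, 128 in replicate 1 and 89.8 in replicate 2, with the summit 50 bp into the 72 bp gene. Next came M02F4.t1, a glycine tRNA gene on X, with 217 pooled, 115 in replicate 1 and 99.4 in replicate 2. The lysine gene T23F1.t1 on V had 208, 122 and 86.0 in the same order. The arginine gene C18A11.t2 on X had 208 pooled, 82.8 in replicate 1 and 129.6 in replicate 2, but its summit lay 279 bp past the end of the gene. The tyrosine gene R11.t1 had 162, 88.9 and 68.0, with its summit 1 bp before the gene. All 5 were in both replicates' own thresholded lists, and 4 of them lie on X.

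Each of 20 amino acids had at least 1 tRNA region. The strongest one per remaining isotype ran down to 67.4 for phenylalanine. It was C28G1.t1 for Glu (155 pooled, 80.1 in replicate 1 and 78.5 in replicate 2), R04D3.t2 for Val (139, 76.3 and 65.9) and C42D8.t1 for Ile (129.9, 85.7 and 40.2). It was W09D6.t2 for Pro (128, 56.6 and 64.9), in an intron of rsa-2, C40H5.t1 for Leu (128, 63.2 and 55.5) and F38G1.t2 for Asp (128, 67.9 and 59.4). The last lies in an intron of egl-17, which encodes a fibroblast growth factor of the worm. C37A2.t1 for Cys (125 pooled) lies in an intron of cye-1, the cyclin E gene. It had 38.5 in replicate 1 and 78.0 in replicate 2, and was in replicate 2's own list only. R01H5.t1 for Thr had 124 pooled, C53C7.t2 for Ser 110.2, H08J11.t3 for Gln 98.2 and F41D9.t3 for Asn 93.7. The region of sup-5, a tryptophan tRNA gene known for its amber suppressor alleles, had 90.6 pooled, 49.4 in replicate 1 and 41.7 in replicate 2. C06G1.t1 for His (85.0), Y22D7AL.t3 for Met (76.7) and F32A6.t1 for Phe (67.4) closed the list, and the last of them was at 51.5 in replicate 1 and 18.8 in replicate 2. The selenocysteine tRNA gene and the 5 tRNA genes without an annotated isotype had no region.

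The share of genes with a region varied between isotypes, mostly within the counting error. Cysteine tRNA genes had the highest share, 8 of 13 (61.5%, interval 35.5 to 82.3%), followed by glutamine with 13 of 27 (48.1%) and glycine with 21 of 55 (38.2%). None of the 7 cysteine regions was in both replicates' own lists, against 32 of 143 tRNA regions (22.4%). The same held for methionine, histidine, tryptophan and phenylalanine. The lowest shares were 1 of 14 for phenylalanine (7.14%, 1.27 to 31.5%), 2 of 12 for tryptophan and 7 of 39 for serine (17.9%, upper bound 32.7%). The interval for cysteine overlapped that of every other isotype with at least 10 genes except phenylalanine, serine and arginine (9 of 44, upper bound 34.5%). Isotypes were ordered after their shares were seen, so the ends of this order are a description.

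**Figure D2:**
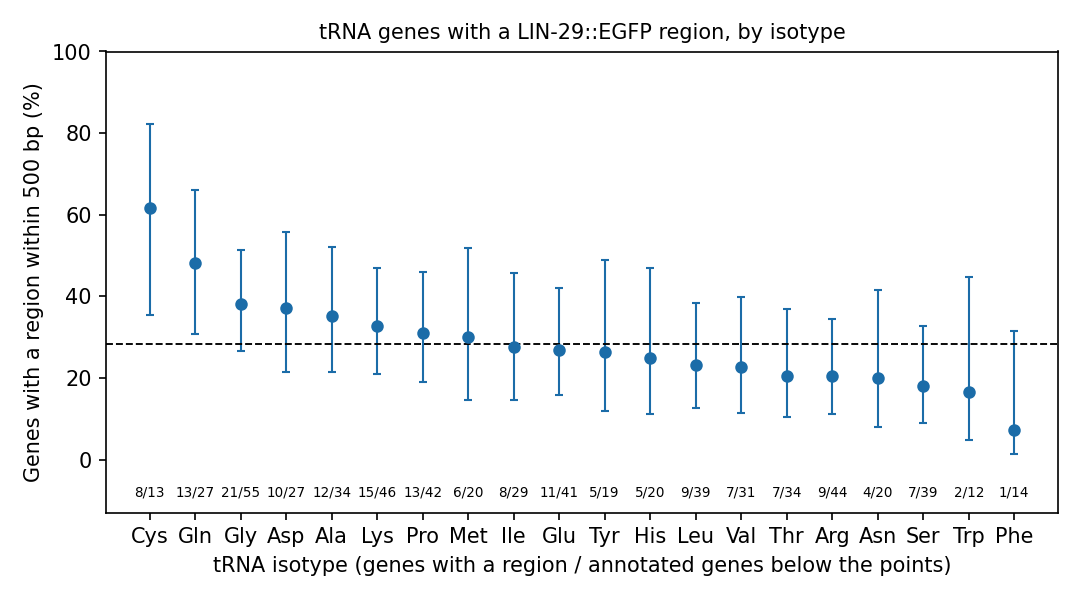
Share of annotated tRNA genes with a region within 500 bp (vertical axis, percent) for each isotype with at least 10 genes, ordered by share. Points are shares, bars are 95% Wilson intervals, counts stand below and the dashed line is the 28.3% of all tRNA genes, which most intervals cross, with cysteine at 61.5% and phenylalanine at 7.14%.

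The summits of tRNA regions sat on the gene itself. The median summit was 20 bp past the 5′ end of the gene in the pooled regions, 19.5 bp in replicate 1 and 21 bp in replicate 2. It was inside the gene in 86 of 143 regions (60.1%), upstream in 45 and downstream in 12, and inside or within 100 bp of the gene in 139 (97.2%). Median signal was 80.2 for summits inside the gene, 72.7 upstream and 70.6 downstream. The B box starts at base 53 of the median tRNA gene, and the summit lay at a median of 35 bp before its first base, so 107 of 137 summits were on the upstream side of the B box. snRNA summits lay at a median of 9 bp upstream of the 5′ end, with 4 inside the gene, 7 upstream and 2 downstream. By the replicates' own summits they lay past the 5′ end, at a median of 6.5 bp in replicate 1 and 4 bp in replicate 2, with as many inside the gene as upstream (5 and 5 of 12, and 6 and 6 of 13), so the side was not settled. snoRNA summits lay further upstream, at a median of 36.5 bp before the 5′ end (33.5 bp before it in replicate 1 and 25 bp in replicate 2), with 41 of 56 upstream of the gene (73.2%), 10 inside and 5 downstream. The replicates' own summits were a median of 27 bp apart at the 212 regions and 30 bp at the other regions, so shifts of this size between classes are near the precision of a single summit.

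**Figure D3:**
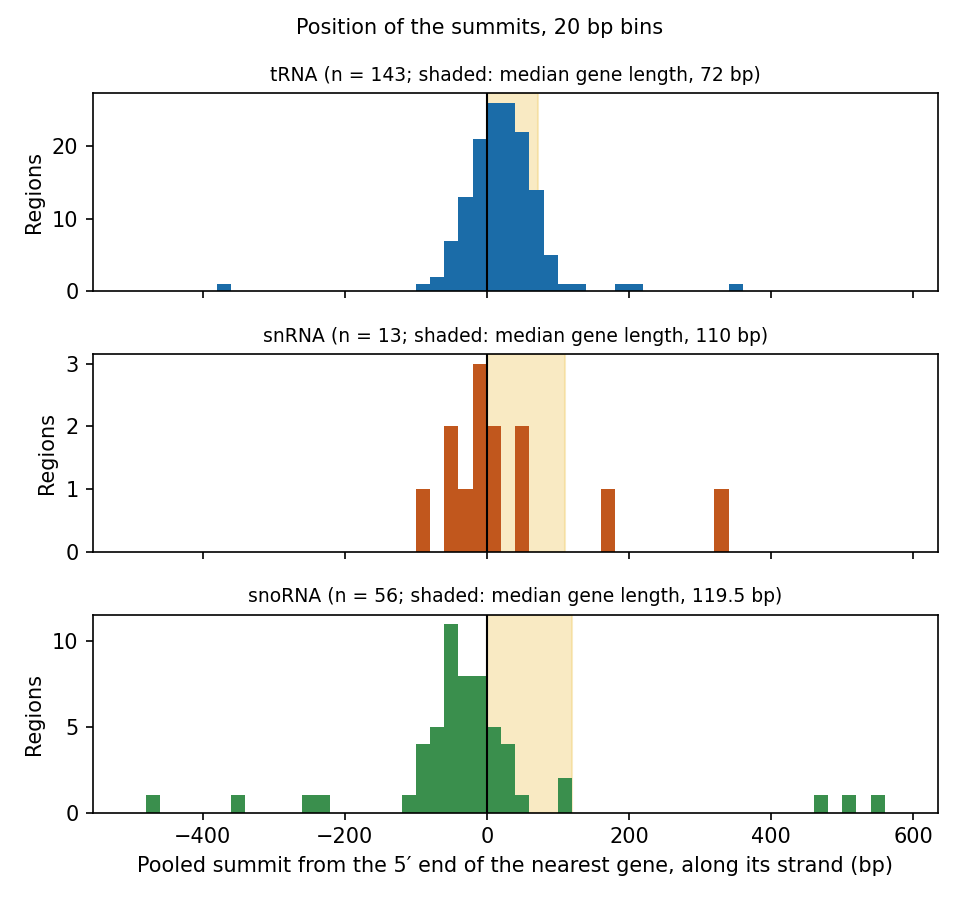
Number of regions (vertical axis) by the distance of the summit from the 5′ end of the nearest small RNA gene, along its strand (horizontal axis, bp, 20 bp bins), for each class. The shaded band is the median gene length (72, 110 and 119.5 bp); by the pooled summits shown, the medians are 20 bp inside the gene for tRNA, 9 bp before its start for snRNA (6.5 and 4 bp past it by the replicates' own summits) and 36.5 bp before it for snoRNA.

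The B box was the sequence shared by most of the tRNA regions, as the gene class entails. It lay within 100 bp of the summit, on either strand, in 125 of 143 tRNA regions (87.4%), in 24 of 56 snoRNA regions (42.9%) and in none of the 13 snRNA regions, against 65 of 811 other regions (8.01%) and 7.76% of pooled candidates away from small RNA genes. Within 50 bp it lay in 53.8% of tRNA regions and 4.81% of other regions. Within the tRNA genes the B box was as common with a region, 166 of 173 (96.0%), as without, 421 of 439 (95.9%). The strict A box TGGCNNAGT was in 11.0% of tRNA genes with a region and 9.57% of those without, so it misses most tRNA genes. ACGCAG and GAGAGA, 6-base words that an earlier analysis of these data had picked from the sites, were counted within 100 bp of the summit. ACGCAG was found at 19.3% of the 212 regions (14.6 to 25.2%) and 24.3% of the other regions (21.5 to 27.4%). GAGAGA was found at 27.8% (22.2 to 34.2%) and 34.4% (31.2 to 37.7%), so both pairs of intervals overlapped. Of the other regions with a B box, 2 of 65 lay near a tRNA pseudogene, and 4 of 209 tRNA pseudogenes had a region. Only 2 of 196 did where no small RNA gene lay within 1000 bp.

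tRNA genes are repeated sequences, which limits how reads can be placed on them. The median share of 50-base words inside a tRNA gene that occur once in the genome was 0, with a region and without. With the flanks included, the single-copy share was a median of 84.8% both for tRNA genes with a region and for those without. The number of genes of identical sequence, the gene itself included, was a median of 12 (quartiles 5 and 20) with a region. Without a region it was 9 (1 and 15). Within 100 bp of the summit it was a median of 78.3% at tRNA regions, 75% at snRNA regions and 100% at snoRNA regions and other regions. How the authors treated reads that map to several places is not given in the sources used here, and its part in the signal on tRNA genes was not tested.

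Tyrosine R11.t1, alanine F15G9.t1 and many other tRNA regions were on chromosome X, which holds 276 of the 612 nuclear tRNA genes. X carried 74 of the 143 tRNA regions (51.7%) and 144 of the 811 other regions (17.8%). Per gene, 95 of 276 tRNA genes on X had a region (34.4%, 29.1 to 40.2%), against 78 of 336 on the autosomes (23.2%, 19.02 to 28.0%). The autosomal shares ran between 16.7% on V and 30.3% on I. Signal at tRNA regions was a median of 83.8 on X and 70.3 on the autosomes, and 21 of 74 regions on X were in both replicates' own lists, against 11 of 69 on the autosomes. Clustering moved with this difference: 39.1% of tRNA genes on X and 18.5% on the autosomes had another tRNA gene within 500 bp. Among tRNA genes with no such neighbour, 31.5% on X (25 to 38.9%) and 21.9% on the autosomes (17.4 to 27.2%) had a region. Among those with one it was 38.9% on X (30.2 to 48.3%) and 29.0% on the autosomes (19.2 to 41.3%). The intervals overlapped within both kinds of gene, and the part of clustering in the difference was not tested.

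The regions with the most small RNA genes were likewise on X. All 6 regions with 3 small RNA genes within 500 bp lay there. The strongest of them was on H08J11.t3, a glutamine tRNA gene, with 98.2 pooled, 59.9 in replicate 1 and 42.9 in replicate 2. C16B8.t2, a proline gene, had 92.1 pooled and H08J11.t1, another glutamine gene, 72.2. Both H08J11 genes lie in introns of ajm-1, which encodes a protein of the apical junctions of epithelia. The single region near genes of 2 classes was that of M01E5.t1, a lysine tRNA gene on chromosome I with a signal of 92.9, within 500 bp of the spliced leader gene sls-2.9.

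Many of these regions lay in introns of protein-coding genes. The summit was in an intron in 101 of the 212 regions (47.6%), namely 72 tRNA, 7 snRNA and 22 snoRNA regions, against 170 of 811 other regions (21.0%). It lay in an exon in 7 against 125, and up to 1000 bp before the 5′ end of a protein-coding gene in 24.5% against 45.01%. Among tRNA regions 38 had their gene in an intron of a gene on the same strand, with a median signal of 67.7, 35 on the opposite strand, with 80.6, and 70 in no intron, with 82.3. By location, the tRNA genes with a region were 47 of 160 for a host on the same strand, 39 of 122 on the opposite strand and 87 of 330 without a host. In the same order the counts were 21 of 141, 7 of 28 and 29 of 177 for snoRNA genes. For snRNA genes they were 6 of 35, 1 of 20 and 7 of 74. Many genes of these classes thus lie in introns with or without a region, and the part of this in the intronic share was not tested. The 5 strongest intronic regions were those of ZK994.7 in pxn-1, C51F7.4 in frm-7, F15G9.t1 in him-4, T03F7.8 in cutl-18 and W05B2.8 in dhc-4.

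The strongest snRNA regions were on genes of the SL2 leader. sls-2.1 on chromosome II had a signal of 202 pooled, 98.8 in replicate 1 and 103 in replicate 2, with the summit 23 bp before the gene. sls-2.2, also on II, had 182, 85.7 and 97.4, with the summit 44 bp into the gene. sls-2.4 on I had 157, 80.2 and 76.4, with the summit 9 bp before the gene. These 3 and W05B2.8 on III, with 159 pooled, 71.4 in replicate 1 and 91.9 in replicate 2, were the 4 snRNA regions in both replicates' own lists, and they stood apart from the other 9, whose signal was at most 94.9. Another leader gene, sls-2.8 on III, had 2 weaker regions, 1 with 69.5 pooled at 90 bp before the gene and 1 with 56.4 at 227 bp past its end. The sls-2 family thus had a region at 5 of 18 genes, sls-2.9 included, beside 14 of 129 over all snRNA genes.

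The other 9 snRNA regions were weaker, and none of them was in both replicates' own lists. sup-6 and sup-39, a pair of genes first found by suppressor mutations and coding for U1 snRNA, both had a region. The region of sup-6 had 94.9 pooled, 43.6 in replicate 1 and 39.2 in replicate 2, and that of sup-39 had 67.8, 35.7 and 27.9. A further annotated snRNA gene, mir-1831, lies within sup-39. F32B5.9 on I, in an intron of cpz-1, had 82.8 pooled, 53.0 in replicate 1 and 26.7 in replicate 2, while F54D8.7 on III had 77.4, 42.6 and 36.6. M163.13 on X had 73.7 pooled and 26.4 in replicate 2, with no candidate in replicate 1. C28A5.7 on III had 75.5 pooled, 34.6 in replicate 1 and 43.0 in replicate 2, and R07E5.16 on III had 63.5, 27.7 and 36.4. W05B2.8, C28A5.7 and R07E5.16 are 3 of 14 snRNA genes with 1 identical 102 bp sequence, and the other 11 had no region.

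Whole snRNA families and chromosomes had no region. None of the 12 sls-1 genes and none of the 10 smy genes, which encode the SmY RNAs of the leader splicing machinery, had one. Over all snRNA genes the share was 14 of 129 (10.9%), and none in families this small is near that share. The median share of 50-base words of the sls-1 genes and their flanks that occur once in the genome was 0, and how reads were placed there is not given. Chromosomes IV (41 snRNA genes) and V (40) were the ones where no snRNA gene had a region, so this grouping follows the outcome. IV and V held 81 of the 129 snRNA genes, where none with a region allows a share of up to 4.53% by the Wilson interval. Elsewhere 14 of 48 snRNA genes had a region (29.2%, 18.2 to 43.2%). All 12 sls-1 genes and all 10 smy genes are among the 81 and are counted again here. The bound and the contrast are thus a description. On IV and V 41 of the 81 had no pooled candidate at all. tRNA genes on IV and V had a region in 28 of 149 cases (18.8%) and snoRNA genes in 22 of 114 (19.3%).

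The 3 strongest of all 212 regions were nearest to snoRNA genes. Y24D9A.9 on IV had a signal of 298 pooled, 162 in replicate 1 and 145 in replicate 2. Its summit, however, was 347 bp before the snoRNA gene, which lies in an intron of the ribosomal protein gene rpl-7A. ZK994.7 on V had 279.5, 158 and 123, with the summit 11 bp before the gene and within pxn-1. C51F7.4 on V had 225, 107 and 112, with the summit 31 bp into the gene. T03F7.8 on V had 203, 109 and 98.2, with the summit 22 bp before the gene. F54E7.10 on III, in an intron of the ribosomal protein gene rps-12, had 178, 101 and 74.95, and its summit lay 249 bp before the snoRNA gene. All 5 were in both replicates' lists, but 2 of them sat away from the snoRNA gene that put them here. Over the class, 48 of 56 summits were inside or within 100 bp of the gene.

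snoRNA genes with a B box just upstream had a region far more often than those without. In the window from 120 bp upstream to 20 bp into the gene, on the strand of the gene, 38 snoRNA genes held GTTCNANNC, and 23 of them had a region (60.5%, interval 44.7 to 74.4%). Of the 308 without it, 34 had one (11.0%, 8.01 to 15.0%). This window was chosen after these sequences had been seen, as were the loose A box, the AACCC and TGTC pair and TATATAA. The strongest pooled candidate within 500 bp had a median signal of 75.2 for genes with the upstream B box and 29.9 for those without. In replicate 1 the medians were 41.5 and 18.8, and in replicate 2 they were 34.5 and 17.4. The direction was the same for each kind of location: 11 of 18 against 18 of 159 for snoRNA genes in no intron, 3 of 6 against 4 of 22 in an intron of a gene on the opposite strand, and 9 of 14 against 12 of 127 on the same strand.

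Read the other way, an upstream B box was present at 23 of 57 snoRNA genes with a region (40.4%), at 15 of 289 without (5.19%) and at 2.04% of protein-coding genes. A loose A box 20 to 70 bases before a B box, the spacing inside tRNA genes, was at 11 of 57 with a region, 4 of 289 without and 0.015% of protein-coding genes. Where present, the B box started at a median of 13 bp before the snoRNA gene, and the summit lay at a median of 24 bp before the start of the box (n = 21 regions). In tRNA regions the summit likewise preceded the B box, by 35 bp. T03F7.8 and F55A11.10, shown above, carry this arrangement, and F55A11.10 had a signal of 155 pooled, 89.6 in replicate 1 and 63.2 in replicate 2. Of the snoRNA regions, 10 of 22 with the upstream B box were in both replicates' lists, 4 of 8 with AACCC and TGTC, and 8 of 26 with neither.

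AACCC followed by TGTC marked a smaller set. Among snoRNA genes without an upstream B box, 8 of 28 with the pair had a region (28.6%), against 26 of 280 with neither element (9.29%). Among snRNA genes the pair was upstream of 7 of 14 with a region, 26 of 115 without (22.6%) and 0.160% of protein-coding genes, and it started at a median of 59 bp before the gene. TATATAA was upstream of 5 of 14 snRNA genes with a region (35.7%), 14 of 115 without (12.2%) and 3.39% of protein-coding genes. Many of these snRNA genes are copies of each other. TATATAA was at 11 of 14 genes of 1 identical sequence, 3 of the 14 with a region. It was also at all 3 genes of another such set, 1 of them with a region. Counts of snRNA genes are too small for these shares to be told apart closely. Box C, TGATGA within the first 20 bases, was in 7 of 57 snoRNA genes with a region and 13 of 289 without.

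**Figure D4:**
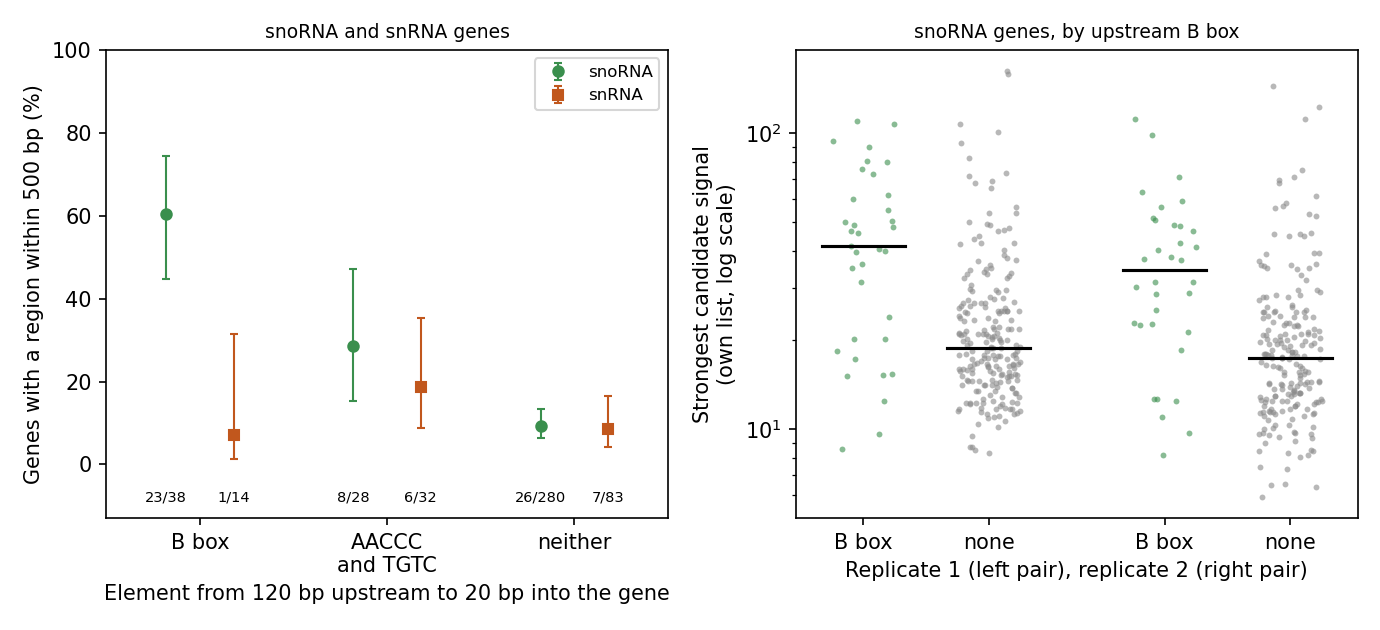
Left, share of snoRNA and snRNA genes with a region within 500 bp (vertical axis, percent, with 95% Wilson intervals and counts) by the element found from 120 bp upstream to 20 bp into the gene; snoRNA genes with a B box stand at 60.5% and those with neither element at 9.29%. Right, strongest candidate signal of each snoRNA gene (log scale, own list of each replicate) with and without the upstream B box; bars are medians, 41.5 and 18.8 in replicate 1 and 34.5 and 17.4 in replicate 2.

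snoRNA regions were in both replicates' own lists at a higher share than tRNA regions, with overlapping intervals. Over all 1023 regions 26.6% overlapped both replicates' own thresholded lists. The share was 58 of 212 near small RNA genes (27.4%, 21.8 to 33.7%) and 214 of 811 elsewhere (26.4%, 23.5 to 29.5%). By class it was 32 of 143 for tRNA (22.4%, 16.3 to 29.9%), 4 of 13 for snRNA (30.8%) and 22 of 56 for snoRNA (39.3%, 27.6 to 52.4%). Regions in neither replicate's own list, known from the lists of the pooled data, were 42.7% of tRNA, 15.4% of snRNA and 19.6% of snoRNA regions, and 38.8% of the other regions. A candidate was present in both replicates for 206 of the 212. Over these, Spearman's rho between the replicates' signals was 0.418, against 0.502 over 786 other regions. By class it was 0.327 for tRNA (n = 138), 0.545 for snRNA (n = 12) and 0.547 for snoRNA (n = 56). The regions of a class share the libraries and, in part, the sequence, so these correlations are descriptions.

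**Figure D5:**
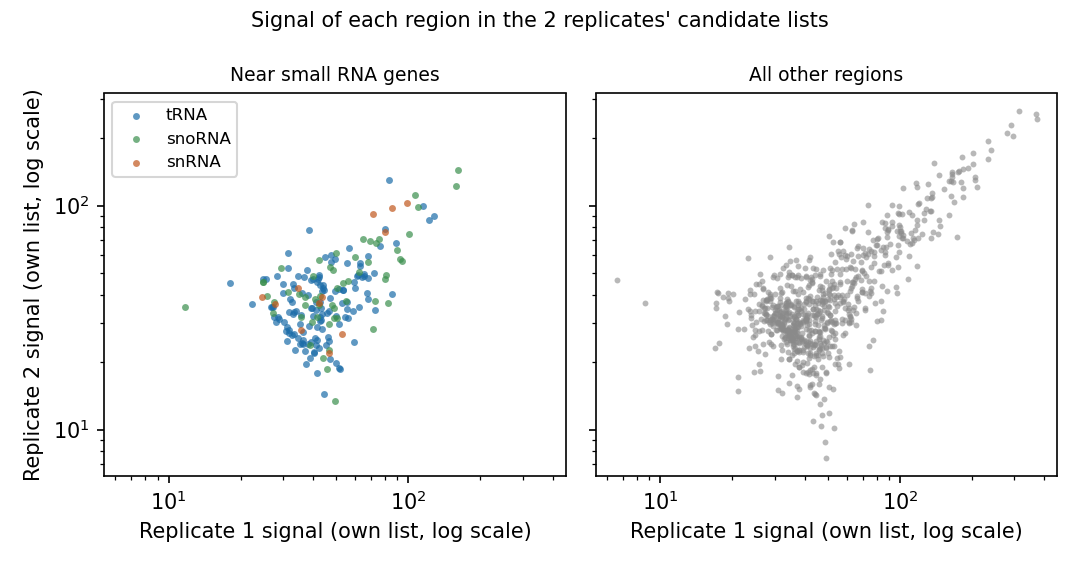
Signal of each region in replicate 2 against replicate 1 (both axes log scale, each replicate's own candidate list), at left for regions near small RNA genes by class and at right for all other regions. Each point is 1 region; rho was 0.418 at left and 0.502 at right, and the points above 200 in both replicates all belong to the other regions.

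Of other small RNA genes read by RNA polymerase III, some had a region. rpr-1, which encodes the RNA of ribonuclease P, had a region over the gene with a signal of 198 pooled, 97.8 in replicate 1 and 92.8 in replicate 2. mrpr-1, the RNA of ribonuclease MRP, at chrII:7200233-7200418, had one 19 bp away with 121 pooled, 56.8 in replicate 1 and 58.9 in replicate 2. Both signals are above 103, the upper quartile of the 212 regions, while yrn-1, a Y RNA gene, had no region. None of the 20 annotated rRNA genes had a region. They were taken by their annotated class, whichever polymerase reads them, and how reads were placed there is not given. Of 24 genes for RNA polymerase III subunits and its factors, 1 had a region, rpac-19, with a summit 53 bp away and a signal of 91.4 pooled, 50.2 in replicate 1 and 38.4 in replicate 2. Of 6 snoRNP and nucleolar protein genes found in the annotation, 2 had one, fib-1 (fibrillarin, 65.7) and nol-58 (72.4). None of 15 genes for Sm and snRNP proteins had one. These counts stand beside the 4.65% of all protein-coding genes.

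The limit of 500 bp left few regions in doubt. Just inside it were Y37E3.22 at 373 bp (signal 76.8, with its summit in an exon of rplp-1), R166.7 at 429 bp (57.98) and W01H2.11 at 467 bp (57.5). Just outside were C06A1.9 at 508 bp (332), K11H12.13 at 569 bp (299) and F53G12.12 at 591 bp (82.7). All 6 are snoRNA genes, and 14 of the 811 other regions had a small RNA gene beyond the limit but within 1000 bp. C06A1.9 and K11H12.13, outside the limit, were stronger than any region inside it.

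Some small RNA genes without a region had candidates as strong as those of genes with one. The strongest were Y95D11A.t1 (68.1), C05G6.t1 (66.6) and C38C6.t1 (65.5) among tRNA genes, and C26C6.13 (61.6), C16D9.10 (61.0) and smy-2 (58.6) among genes annotated as snoRNA. Among snRNA genes they were sls-1.9 (78.4), sls-1.11 (64.9) and smy-1 (58.6), where smy-1 and smy-2 share 1 candidate. The highest score of any pooled candidate within 500 bp was 1000 for sls-1.9 and 920 for Y95D11A.t1, above the lowest score kept, 830. Whether these candidates belong to a region with its summit farther off was not checked. Each of the signals listed here is above the 48.6 of the weakest region near a small RNA gene.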

How the data were processed

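Anti-GFP ChIP-seq of LIN-29::EGFP was deposited for 2 biological replicates as 8 peak lists in ce11 coordinates. Each replicate has a ranked candidate list and a thresholded list, and the pooled data have a pair of each, 1 of them called conservative, per the file names and labels. Neither aligner nor peak caller is given in the sources used here. The deposited signal of a peak comes from the peak caller the authors ran, on a scale that is not stated. The deposited score, made by the authors, runs to 1000, and the lowest kept, 830, stands for an irreproducible discovery rate of 0.01. A further 16 columns on the inputs compared, in the 2 series-wide ranked lists, were left out. No read counts are in the lists, so the depth is unknown.

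Thresholded peaks overlapping by 1 bp or more were merged, and the summit of the strongest was measured against nuclear genes of Ensembl release 115 (WBcel235, the assembly that ce11 names). tRNA isotypes and sequences came from RefSeq for the same assembly, and isotypes matched for 607 tRNA genes. A replicate's value is the strongest candidate of its own list that overlaps the region. With 1 group, and with the control experiment that the labels name not analysed here, no test of a condition was made, so shares carry 95% Wilson intervals for counting error only and no p-value is given. Scripts (Python 3.11.15, pandas 2.3.3, numpy 2.4.6, SciPy 1.17.1, matplotlib 3.10.9) were tested on simulated data. Named genes are the 5 strongest regions per class, every snRNA region, the strongest per isotype, the 3 regions with the most small RNA genes, and those nearest the distance limit or strongest without a region. F55A11.10, named for its printed sequence, falls outside this rule. The members and gene lists were chosen with earlier results of these data known. Alternatives changed the distance, the lists used, the merging, the threshold, the signal and the B box window.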

Additional observations from a re-analysis of the deposited data

How the results depend on the processing

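The results recomputed were single counts, shares and medians. Comparisons between groups, such as that by upstream B box, were not among them. Of 131 alternative values, 101 stayed close to the reported ones and 30 moved. None moved with a distance of 200 or 1000 bp, with distance to the 5′ end, with the pooled list alone, with merging only where the overlap covers at least 50% of the shorter peak or with the signal of the strongest thresholded peak, an alternative added after seeing the data. A single replicate's own list gave 89 to 108 regions near small RNA genes, 50 to 65 for tRNA, 7 to 8 for snRNA and 32 to 35 for snoRNA. The genes with a region were then 67 to 77 for tRNA, 8 to 9 for snRNA and 34 to 37 for snoRNA. Each such list holds fewer peaks, 534 in replicate 1 and 387 in replicate 2, against 906 in the pooled thresholded list. The part of list length in the lower counts was not tested. On the replicates' own scales the median signal was 37.5 to 43.4 over all regions near small RNA genes, 35.3 to 42.2 for tRNA, 38.9 to 45.1 for snRNA and 42.0 to 48.8 for snoRNA, which is not comparable with the pooled scale. The conservative list alone gave 33.9% in both replicates' lists, a median signal of 85.0 and one of 82.5 for tRNA regions. A score of 1000 gave a share of 23.4% of all regions, 99.1% of tRNA summits within 100 bp of the gene, and medians of 85.1 and 84.8. A B box within 50 bp of the summit was found at 53.8% of tRNA regions. No paired analysis was possible because there is 1 group. Signal can be ranked only within a list, and depth is unknown.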
